A study of Arabidopsis thaliana with 45 samples.

Results

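The regions described here are the windows of 200 bp whose CG methylation was listed as different between plants under 110 mGy/h (γ110) and plants under 30 mGy/h (γ30) of the same generation. They comprised every window of 2 deposited tables, 37 in the S1 generation and 15 in the S2 generation, which made 52 of the 3281 windows that all tables of the series hold when each is counted once per table. The study sequenced bisulfite-treated genomic DNA of Arabidopsis thaliana (Columbia) rosettes, a treatment after which only methylated cytosines still read as C, with 5 samples for each of 9 groups. S1γ110 and S2γ110 plants were kept under gamma radiation from a caesium source at 110 mGy/h for 14 days and came from 1 or 2 generations that had been exposed in the same way. S1γ30 and S2γ30 plants had the same history at 30 mGy/h. S1γ0 and S2γ0 plants, like their ancestors, had background radiation only and were grown in a separate chamber, so chamber and background cannot be told apart. P0γ30 plants, whose levels are given for comparison, were under 30 mGy/h with no exposed ancestors. The design text gives an age of 7 days when exposure began, whereas the sample labels give 14 days. Whole rosettes were used, so a level averages over all leaf cell types.

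Every value below is the authors' methylation level of a group, a fraction from 0 to 1, for which no value per sample, no spread and no coverage was given. No test over samples could therefore be run, and a p for a single window is not given here. A window is in a table only where the authors' thresholds were met (p ≤ 0.05, and levels at least 20% apart), so the difference between γ110 and γ30 is what selected these windows and is not itself a result. The smallest listed differences were 0.203 in S1 and 0.226 in S2, and values just below the threshold are not known here. Cut into windows of the same length, the genome has 567185 that hold a CG, and 0.00652% of them were listed between S1γ110 and S1γ30, of which 20 were higher and 17 lower in S1γ110 (0.00353% and 0.003%). Between S2γ110 and S2γ30, 0.00264% were listed, with 7 higher and 8 lower in S2γ110 (0.00123% and 0.00141%). All 52 windows were in the CG context. A group that had a level in several tables had the same one in each, for 724 of 724 repeated levels of the series, so levels from different tables were set side by side.

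In plants the cytosine of a CG is methylated by MET1, which copies the mark to the new strand after replication, so a CG state can pass through cell divisions and into offspring. CG methylation is found over transposable elements (TEs), where it goes with silencing, and also within the transcribed part of many moderately expressed genes, where its role is less clear. Gains and losses of the mark at single CG sites between generations are well known in this species.

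Sequences are shown for windows with the largest differences and for a few on which other comparisons turned, with each CG in capitals, to show how few CG sites most of them held. They were read from the plus strand of the RefSeq TAIR10.1 sequence at the authors' coordinates. From S1 these are AT1G07040, a coding exon and the largest increase in γ110, and the window near PHT1-1, listed with a TE and the largest decrease. The 2-Cys Prx B window, across an intron and a coding exon, had similar levels in S1γ30 and S2γ30.
AT1G07040, chr1:2161601-2161800: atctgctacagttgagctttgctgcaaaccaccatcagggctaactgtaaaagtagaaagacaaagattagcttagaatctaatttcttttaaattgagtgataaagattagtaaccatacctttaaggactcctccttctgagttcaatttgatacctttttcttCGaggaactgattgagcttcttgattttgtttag
near PHT1-1, chr5:17396201-17396400: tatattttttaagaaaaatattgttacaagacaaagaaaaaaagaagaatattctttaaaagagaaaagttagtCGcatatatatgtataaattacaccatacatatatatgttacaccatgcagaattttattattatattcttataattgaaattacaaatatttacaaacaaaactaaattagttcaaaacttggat
2-Cys Prx B, chr5:1920201-1920400: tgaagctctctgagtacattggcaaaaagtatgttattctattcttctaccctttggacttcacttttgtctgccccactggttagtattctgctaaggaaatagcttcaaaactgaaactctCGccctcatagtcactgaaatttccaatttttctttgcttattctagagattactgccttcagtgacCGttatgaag
In S2 the introns of AT5G15680 and AT5G08630 had the largest increases with 1 CG each. The CPL2 window, which has a listed level of 0 in S2γ0, is a coding exon with a CG at its positions 173 and 188. The window near AT3G29120 is the opposite case, with a large difference in a window that holds 6 CG sites. The last CG near AT3G29120 crosses the end of the window, so only its C is shown.
AT5G15680, chr5:5110001-5110200: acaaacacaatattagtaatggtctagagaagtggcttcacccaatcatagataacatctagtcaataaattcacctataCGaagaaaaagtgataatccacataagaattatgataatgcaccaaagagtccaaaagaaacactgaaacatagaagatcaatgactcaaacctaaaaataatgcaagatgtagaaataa
AT5G08630, chr5:2801801-2802000: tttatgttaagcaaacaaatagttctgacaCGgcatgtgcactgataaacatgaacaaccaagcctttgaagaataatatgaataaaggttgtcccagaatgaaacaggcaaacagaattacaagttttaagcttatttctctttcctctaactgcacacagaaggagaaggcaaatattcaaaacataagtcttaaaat
CPL2, chr5:110201-110400: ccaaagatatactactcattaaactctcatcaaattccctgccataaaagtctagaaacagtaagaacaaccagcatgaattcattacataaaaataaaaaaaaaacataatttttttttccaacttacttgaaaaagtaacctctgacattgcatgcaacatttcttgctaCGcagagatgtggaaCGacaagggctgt
near AT3G29120, chr3:11097201-11097400: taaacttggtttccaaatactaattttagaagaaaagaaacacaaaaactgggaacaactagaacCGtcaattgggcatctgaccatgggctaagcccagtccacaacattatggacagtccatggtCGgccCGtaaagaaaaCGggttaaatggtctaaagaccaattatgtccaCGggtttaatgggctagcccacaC

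At the 20 windows higher in S1γ110, the S1γ30 level was under 0.05 in 12. The window in AT1G07040 (chromosome 1, 2161601 to 2161800), a coding exon with 1 CG, had 0.858 in S1γ110 and 0.0413 in S1γ30. This CG was thus highly methylated at the higher dose rate and almost unmethylated at the lower. Near AT4G26030 (chromosome 4, 13204801 to 13205000), 537 bp upstream of that gene and listed with the transposable element AT4TE61975, the level was 0.643 in S1γ110 and 0.0204 in S1γ30, again with 1 CG. CHX7, a member of the cation/proton exchanger family, had 0.630 in S1γ110 and 0.0259 in S1γ30 over an intron and coding exon on chromosome 2 (12009601 to 12009800). These 3 were the only increases of S1 above 0.5.

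In other increases S1γ30 was already partly methylated. SWI3C, a core subunit of SWI/SNF chromatin remodelling complexes, had 0.924 in S1γ110 and 0.468 in S1γ30 at 2 CG sites of a coding exon (chromosome 1, 7621801 to 7622000). An intron of AT2G26810, annotated as a putative methyltransferase, had 0.868 in S1γ110 and 0.450 in S1γ30 (chromosome 2, 11434801 to 11435000). The receptor-like kinase gene SRF3 had 0.938 in S1γ110 and 0.536 in S1γ30 in a coding exon (chromosome 4, 1491601 to 1491800). In these windows γ110 was close to full methylation and γ30 was intermediate. From an almost unmethylated level in S1γ30, the window shared by the UTRs of AT4G33585 and the beta carbonic anhydrase gene BCA5 had 0.504 in S1γ110 and 0.0259 in S1γ30 (chromosome 4, 16141601 to 16141800). The window near AT3G11880, listed with the TEs AT3TE15805 and AT3TE15810 (chromosome 3, 3750201 to 3750400), had 0.449 in S1γ110 and 0.00654 in S1γ30. The other 12 increases ranged from 0.203 in XIK, a myosin gene, to 0.381 in AT1G19880, which is annotated as an RCC1 family protein. Among them was the single CG of AT4G26600, with 0.292 in S1γ110 and a listed level of 0 in S1γ30 (chromosome 4, 13421801 to 13422000).

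Of the 17 windows lower in S1γ110, 6 had a level under 0.05 in S1γ110. The window with the largest difference of all 52 lay between PHT1-6 and PHT1-1, which encode phosphate transporters, 1053 and 3369 bp away, and was listed with the TE AT5TE62835. Its single CG (chromosome 5, 17396201 to 17396400) had 0 in S1γ110 and 0.873 in S1γ30. Near AT1G33200 (chromosome 1, 12040001 to 12040200), listed with the TE AT1TE39010, the level was 0.0529 in S1γ110 and 0.703 in S1γ30. Near AT5G28673 (chromosome 5, 10705601 to 10705800), with no TE listed, it was 0.0397 in S1γ110 and 0.675 in S1γ30. Near AT5G26610, listed with AT5TE33980 (chromosome 5, 9368601 to 9368800), it was 0.243 in S1γ110 and 0.763 in S1γ30. All 4 decreases above 0.5 in S1 thus lay between genes.

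Decreases within genes were smaller. MAML-4, annotated as a methylthioalkylmalate synthase-like enzyme, had 0.0262 in S1γ110 and 0.466 in S1γ30 at 5 CG sites (chromosome 1, 6372401 to 6372600). PLA2-BETA, a secretory-type phospholipase A2 gene, had 0.0159 in S1γ110 and 0.423 in S1γ30 (chromosome 2, 8504401 to 8504600). MCM8, a helicase gene known for its part in meiotic recombination, had 0.00725 in S1γ110 and 0.392 in S1γ30, with 1 CG in the UTR and 1 in a coding exon (chromosome 3, 2961201 to 2961400). The same window overlaps the gene HCF152 on the other strand. In each of these the γ110 level was close to 0 and the γ30 level was intermediate. The last of the 8 largest decreases, near AT5G38005 and listed with the TE AT5TE54805 (chromosome 5, 15150001 to 15150200), had 0.0444 in S1γ110 and 0.413 in S1γ30. The remaining 9 decreases lay between -0.351 in AT5G60170 and -0.204 in AT5G24740, and their S1γ110 levels were at least 0.143. They included CAS1, which encodes cycloartenol synthase of sterol synthesis, with 0.577 in S1γ110 and 0.890 in S1γ30 (chromosome 2, 2928401 to 2928600), and WNK8, a kinase gene, with 0.413 in S1γ110 and 0.666 in S1γ30 (chromosome 5, 16796801 to 16797000).

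**Figure D1:**
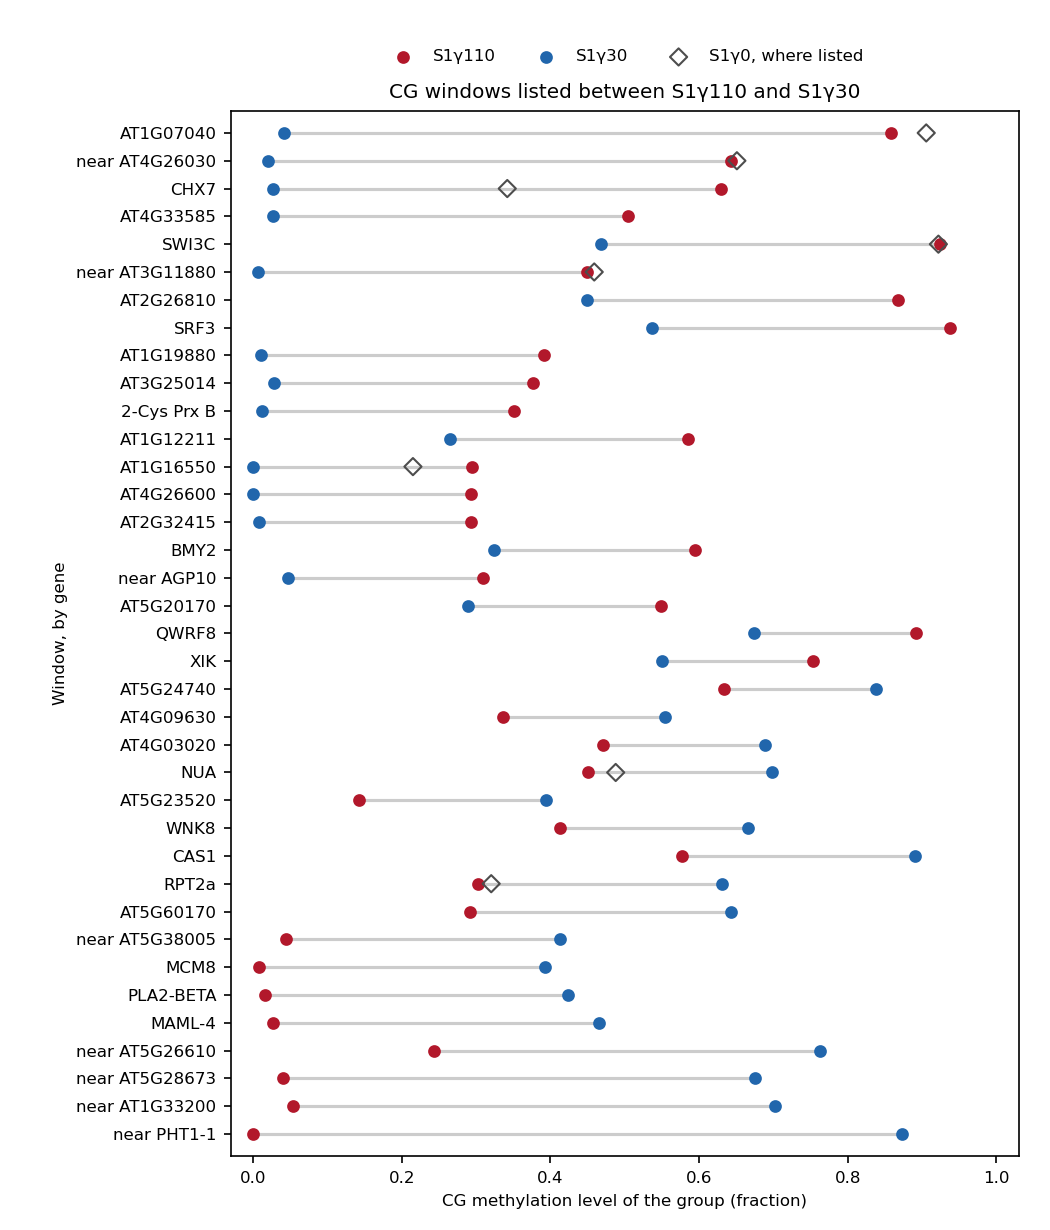
CG methylation level (fraction, x axis) of the 37 windows listed in S1, 1 row per window named by the gene it overlaps or lies near, sorted by the difference. Red points are S1γ110, blue points S1γ30, and open diamonds S1γ0 where listed; each point is 1 group level with no error given. The top row is AT1G07040 with 0.858 in S1γ110 and 0.0413 in S1γ30, the bottom row the window near PHT1-1 with 0 and 0.873.

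Which of the dose groups stood apart was read from the background level, looked up in the table of γ30 against γ0 of the same generation. For S1, 8 of the 37 windows had one (0.0227% of genomic windows were listed in that table), and in 8 of 8 the S1γ30 level was the one that departed, in that S1γ0 and S1γ110 were the nearest pair. A background level is listed only where it differed from γ30 by the authors' thresholds, so this look-up could not return a window at which γ110 alone departed, and the count is a description. For the other 29 windows the S1γ0 level is not known here. None of the 37 was listed between S1γ110 and S1γ0, a comparison with 0.000353% of windows listed, which does not show that these groups were equal.

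The look-up at these 8 windows left room for a distance of at least 0.332 between γ110 and background on the same side of S1γ30. How near γ110 and γ0 lie at windows that were not listed is not known here. The nearness given below is thus a description without a reference, and it was not tested. In AT1G07040 the levels were 0.906 in S1γ0, 0.0413 in S1γ30 and 0.858 in S1γ110. In SWI3C they were 0.922, 0.468 and 0.924 in the same order, and near AT4G26030 they were 0.651, 0.0204 and 0.643. Near AT3G11880 they were 0.459, 0.00654 and 0.449. At these windows S1γ0 and S1γ110 thus had almost the same level. For windows lower in γ110, NUA, which encodes a nuclear pore anchor, had 0.488 in S1γ0, 0.698 in S1γ30 and 0.451 in S1γ110 (chromosome 1, 29822001 to 29822200). RPT2a, an ATPase subunit of the proteasome's regulatory particle, had 0.320 in S1γ0, 0.630 in S1γ30 and 0.302 in S1γ110 (chromosome 4, 14313401 to 14313600). The pseudogene AT1G16550 had 0.215, 0 and 0.294 (chromosome 1, 5667201 to 5667400). CHX7 was the exception, with 0.342 in S1γ0, 0.0259 in S1γ30 and 0.630 in S1γ110, which puts γ0 near the middle of the other groups. Over the 8 windows the distance between S1γ110 and S1γ0 had a median of 0.0277 and reached 0.288 in CHX7, and it was within 0.1 in 7.

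In S2, 13 of the 15 windows had a background level (0.136% of windows were listed in that table), and S2γ30 departed in 13 of 13. The same limits hold, for this count and for the distances. The distance between S2γ110 and S2γ0 was within 0.1 in 13 of 13, with a median of 0.0154 and a largest value of 0.0822 near APY1. In AT3G29310, AO and AT5G53360 the S2γ30 level was so low that levels listed below it could not lie more than 0.1 apart, so their nearness was set by the thresholds. In the other 10 windows the distance was within 0.1 in 10, with a median of 0.0247. Among them, CPL2 and AT3G29255 had room for a distance of only 0.167 and 0.172, so their nearness was also partly set by the thresholds. The windows without a background level were those of AHL11 and NSH3. None of the 15 was listed between S2γ110 and S2γ0 (0.000882% of windows).

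**Figure D2:**
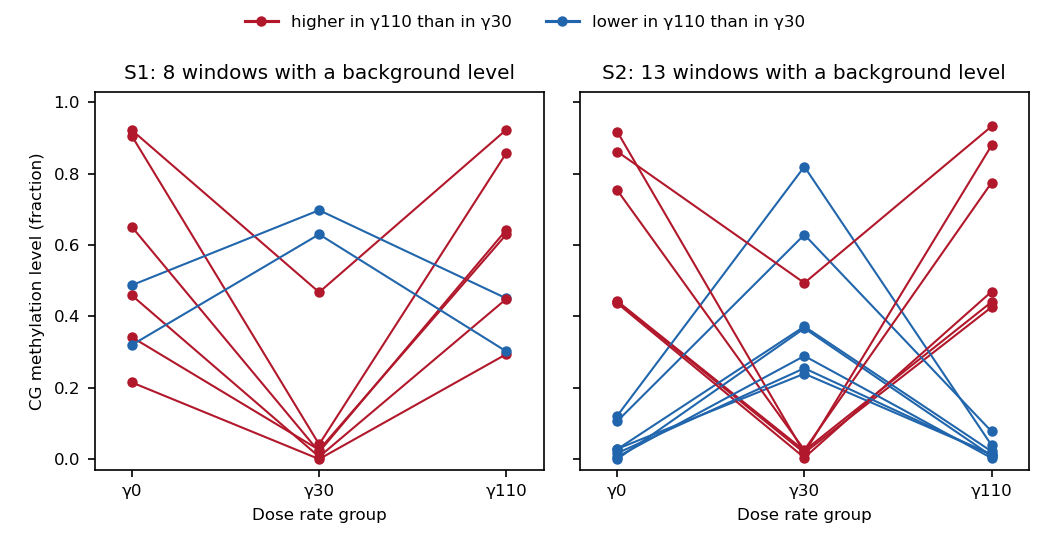
CG methylation level (fraction, y axis) at γ0, γ30 and γ110 (x axis, in order of dose rate) for the 8 S1 windows and 13 S2 windows with a background level; each line joins the 3 group levels of 1 window, red where γ110 was higher than γ30 and blue where it was lower. The lines form a V or an inverted V with the turn at γ30; the S1 line with unequal ends is CHX7 at 0.342 in γ0 and 0.630 in γ110.

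At the 7 windows higher in S2γ110, S2γ30 was near 0 in 5. In an intron of AT5G15680, annotated as an ARM repeat protein, S2γ110 had 0.880 and S2γ30 had 0.0168 (chromosome 5, 5110001 to 5110200), with 0.919 in S2γ0. The intronic window of AT5G08630, a DDT domain protein gene, had 0.775 in S2γ110 and 0.0256 in S2γ30 (chromosome 5, 2801801 to 2802000), with 0.754 in S2γ0. The other windows of this kind held 2 CG sites and a γ110 level below 0.5. PDF1B, a peptide deformylase gene whose product removes the formyl group from new organellar proteins, had 0.470 in S2γ110 and 0.00402 in S2γ30, with both CG sites in the UTR (chromosome 5, 4726801 to 4727000). An intron of the cyclophilin-like gene AT1G01940 had 0.441 in S2γ110 and 0.0237 in S2γ30 (chromosome 1, 324001 to 324200). An intron of FYPP1, a phosphatase catalytic subunit gene, had 0.426 in S2γ110 and 0.0175 in S2γ30 (chromosome 1, 18660001 to 18660200). Their S2γ0 levels were 0.437, 0.443 and 0.441, and thus at the level of γ110. In AT5G11500, a coiled-coil protein gene listed under its neighbour MYB3R-4, an activator of genes of cell division, both dose groups were methylated, with 0.933 in S2γ110 and 0.494 in S2γ30 (chromosome 5, 3677601 to 3677800) and 0.863 in S2γ0. NSH3, a nucleoside hydrolase gene, had 0.564 in S2γ110 and 0.179 in S2γ30 over 6 CG sites (chromosome 5, 6294401 to 6294600).

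At the 8 windows lower in S2γ110, the level of S2γ110 was under 0.05 in 6. Near APY1, 1367 bp upstream of the transcription factor gene NAC047, the level was 0.0390 in S2γ110 and 0.820 in S2γ30 (chromosome 3, 1064601 to 1064800). This was the largest decrease of S2, and S2γ0 had 0.121. Near AT3G29120 (chromosome 3, 11097201 to 11097400), listed with the TE AT3TE46170, it was 0.0776 in S2γ110 and 0.629 in S2γ30, with 0.106 in S2γ0. The remaining decreases lay in genes. CPL2, a phosphatase gene whose family acts on the tail of RNA polymerase II, had 0.00897 in S2γ110 and 0.367 in S2γ30, with a listed level of 0 in S2γ0 (chromosome 5, 110201 to 110400). An intron of AT3G29255, annotated as a putative triterpene synthase, had 0.0216 in S2γ110 and 0.372 in S2γ30 (chromosome 3, 11212201 to 11212400). AO encodes L-aspartate oxidase, which starts the synthesis of NAD, and had 0.00286 in S2γ110 and 0.289 in S2γ30 (chromosome 5, 4769401 to 4769600). Windows in the UTR of AT5G53360 and in a coding exon of AT3G29310 had 0.0118 and 0.0131 in S2γ110, against 0.255 and 0.239 in S2γ30 (chromosome 5, 21649201 to 21649400, and chromosome 3, 11250601 to 11250800). The γ0 level of these 5 genes was at most 0.0285, as near to 0 as that of γ110. Only AHL11, an AT-hook DNA-binding protein gene, was methylated in both groups, with 0.366 in S2γ110 and 0.672 in S2γ30 (chromosome 3, 22691401 to 22691600).

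**Figure D3:**
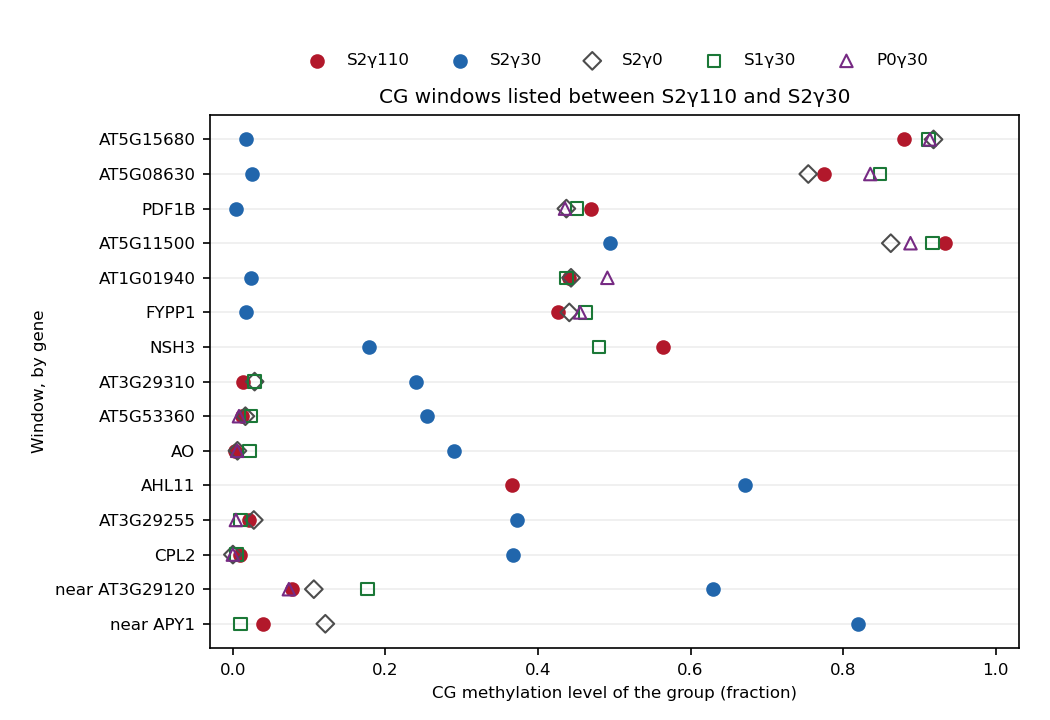
CG methylation level (fraction, x axis) of the 15 windows listed in S2, 1 row per window named by the gene it overlaps or lies near, sorted by the difference. Filled red points are S2γ110, filled blue points S2γ30, and open symbols the other groups with a level; each point is 1 group level with no error given. AHL11 has no group other than S2γ110 and S2γ30; in the other rows the blue point lies outside the other points, by 0.863 in AT5G15680 and by 0.211 in AT3G29310.

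The levels under 30 mGy/h in other generations could be added from the tables of γ30 between generations. These share a γ30 group with the tables above and list a window only if it differed there, so the levels are given side by side and not as further support. For S2, 14 windows had an S1γ30 level and 11 a P0γ30 level (0.325% and 0.048% of windows were listed between S2γ30 and S1γ30 and between S2γ30 and P0γ30). In AT5G15680 the γ30 levels were 0.914 in P0, 0.912 in S1 and 0.0168 in S2. In CPL2 they were 0, 0.00461 and 0.367. In PDF1B they were 0.435, 0.451 and 0.00402. The levels of earlier generations under the same dose rate were thus close to those of S2γ110 and S2γ0. At all 14 windows with more than 1 other group, S2γ30 lay outside the range of the others, by 0.211 to 0.863. The other groups spread over a median of 0.0377, which the thresholds limit where S2γ30 was low, as above, and by more than 0.1 in 2 windows, those near APY1 and near AT3G29120.

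For S1, 18 windows had a P0γ30 level (0.0324% of windows were listed between S1γ30 and P0γ30) and 20 an S2γ30 level, and 15 had both. P0γ30 was nearer to S1γ110 than to S1γ30 in 18 of 18, with a median distance to S1γ110 of 0.0223. S2γ30 was nearer to S1γ110 in 18 of 20. A window is listed between S1γ30 and P0γ30 or S2γ30 only where these levels were at least 20% apart. Windows at which they were alike are thus mostly missing, and these counts give no rate of change between generations. AT1G07040 had 0.842 in P0γ30, 0.0413 in S1γ30 and 0.828 in S2γ30. MAML-4 had 0.0303, 0.466 and 0.0156 in the same order, and the window near AT1G33200 had 0.0345, 0.703 and 0.0359. The S1γ30 level of these windows thus differed from the level of S2γ30, whose seeds came from irradiated S1 plants. Whether a level passed from one generation to the next was not tested. Over the 25 S1 windows with at least 2 other groups, S1γ30 lay outside the range of the others in 25, by at least 0.2 in 23. Listing against S1γ30 required a distance of this size, so the distance is not itself a result. The others spread over a median of 0.0295. The thresholds limit this spread too where the others lay below an S1γ30 level that was not high, as in AT5G23520 with 0.394. For 12 S1 windows no group other than S1γ110 and S1γ30 had a level.

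At 2 windows the S2γ30 level was close to that of S1γ30. In 2-Cys Prx B, a chloroplast peroxiredoxin gene that reduces peroxides, the γ30 levels were 0.395 in P0, 0.0122 in S1 and 0.0157 in S2, whereas S1γ110 had 0.35 and S2γ0 had 0.372. In MCM8 they were 0.0618 in P0, 0.392 in S1 and 0.367 in S2, whereas S1γ110 had 0.00725 and S2γ0 had 0.0455. The level of S1γ30 was lower than that of P0γ30 in 2-Cys Prx B and higher in MCM8. Levels of S1γ0 and S2γ110 at these windows are not known here. Neither window was listed between S2γ110 and S2γ30. No window was listed in both generations, with 0.00652% of genomic windows listed in S1 and 0.00264% in S2. At such small shares the lack of a shared window says nothing about whether windows recur.

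**Figure D4:**
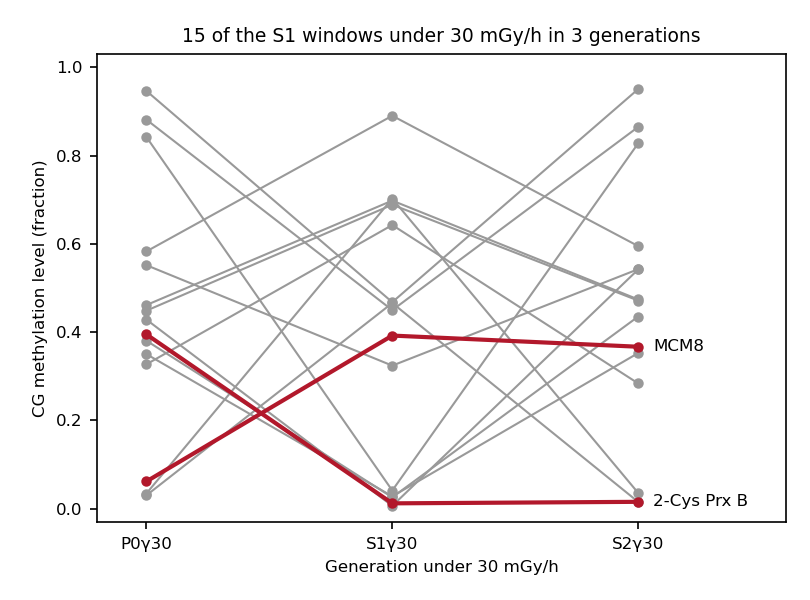
CG methylation level (fraction, y axis) under 30 mGy/h in P0, S1 and S2 (x axis) for the 15 S1 windows with all of these levels; each line is 1 window and each point 1 group level. Grey lines turn at S1γ30, with S2γ30 nearer to P0γ30 than to S1γ30; the red lines are MCM8, with 0.392 in S1 and 0.367 in S2, and 2-Cys Prx B, with 0.0122 and 0.0157.

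By the annotation, 28 of the 37 S1 windows (75.7%, 95% exact binomial interval 58.8 to 88.2%) and 13 of the 15 S2 windows (86.7%, 59.5 to 98.3%) overlapped protein-coding genes. The share was 58.6% among genomic windows with a CG. These intervals are for counting error among windows alone. The genomic share also counts windows with too little coverage for the authors' calls or with no methylation. It is thus not a matched reference, and an excess in genes was not tested. Of 105 CG sites in the S1 windows, 57 lay in coding exons, 24 in introns, 5 in UTRs, 2 in exons of the pseudogene AT1G16550 and 17 between genes. The intron sites include a site in an intron of that pseudogene. Of 44 in the S2 windows, 18 lay in coding exons, 12 in introns, 6 in UTRs and 8 between genes. In S2, 5 of the 7 windows higher in γ110 had all of their CG sites in introns, against 1 of the 8 lower ones. In S1 this held for 2 of the 20 higher and 1 of the 17 lower windows, and neither the contrast by direction nor that between the generations was tested. The share of all genomic CG sites in exons, introns and UTRs was not computed. These counts therefore show no preference for a feature. The 8 S1 windows between genes comprised all 7 with a listed TE and the window near AT5G28673, and 3 of them were higher and 5 lower in S1γ110. The gene named by the authors could be matched to one that the window overlapped in 17 S1 windows and 5 S2 windows. Names without a match in the annotation, such as MED17 and CPuORF58 in S1, were not counted, so these are minimum counts. Windows in plus-strand genes only were never listed as gene body, 0 of 9 in S1 and 0 of 8 in S2, and windows in minus-strand genes only always were, 15 of 15 and 5 of 5. Genes are therefore named here by overlap.

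By chromosome, the S1 windows numbered 8, 5, 3, 9 and 12 on chromosomes 1 to 5. These chromosomes hold 25.4%, 16.5%, 19.8%, 15.6% and 22.7% of the windows with a CG. The S2 windows numbered 2 on chromosome 1, 5 on chromosome 3 and 8 on chromosome 5, with 0 on chromosomes 2 and 4. Whether the counts differed from these shares was not tested. On chromosome 3, those near AT3G29120, in AT3G29255 and in AT3G29310 lay between 11097201 and 11250800. No windows of the same table were neighbours within 200 bp.

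From 1 to 5 CG sites in a window the median size of the difference was smaller with each further site, and with 6 it was larger again. The 6 windows with 1 CG had a median absolute difference of 0.783, the 21 with 2 CG sites 0.417, the 10 with 3 CG sites 0.304, the 8 with 4 CG sites 0.249, the 3 with 5 CG sites 0.217 and the 4 with 6 CG sites 0.345. With 2 CG sites, 15 of 21 differences lay between 0.35 and 0.5. The difference multiplied by the number of CG sites had a median of 0.912 in S1 and 0.863 in S2. The authors' threshold keeps smaller differences out of the tables at any number of CG sites, and the coverage of each site is unknown here. These differences are the ones that selected the windows, so the trend and the product are descriptions and were not tested. Of the windows with 6 CG sites, the S1 window in QWRF8 had 0.217, and those of S2 were larger, with 0.552 near AT3G29120, 0.385 in NSH3 and 0.305 in AHL11. MAML-4 had 0.440 over 5 CG sites. The median number of CG sites was 3 for the S1 windows, 2 for the S2 windows and 4 for all genomic windows that hold any.

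**Figure D5:**
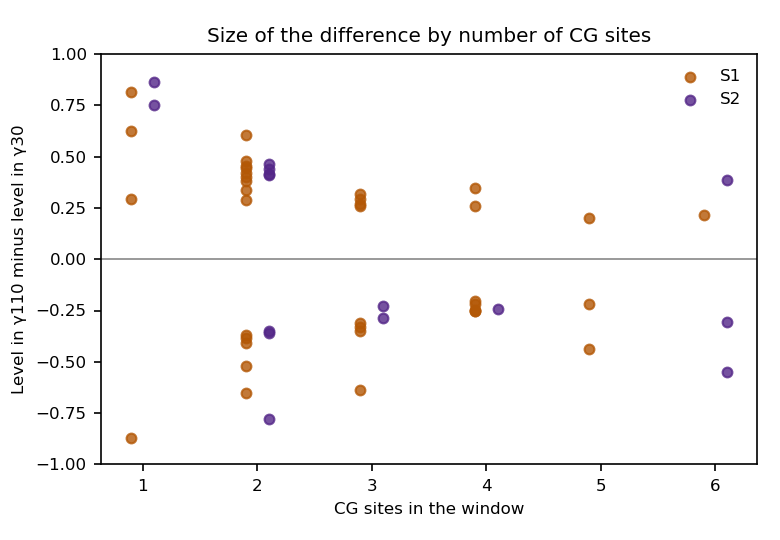
Difference in CG methylation level, γ110 minus γ30 (y axis, in units of the fraction), by the number of CG sites in the window (x axis), for the 37 S1 windows (orange) and 15 S2 windows (purple); each point is 1 window. Points lie at up to 0.873 in size with 1 CG and below 0.35 with 4, and the S2 windows with 6 CG sites reach 0.552 in size.

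The median absolute difference was 0.348 in S1 and 0.409 in S2. Between γ30 and γ0 it was 0.312 in S1 and 0.322 in S2, over 129 and 771 windows. All of these differences are the ones that selected the windows, and the authors' thresholds keep smaller ones out. The medians are thus descriptions. Whether the size of the difference varied between the comparisons or the generations was not tested. Genes of the DNA methylation and demethylation machinery, of the response to DNA damage and linked to oxidative stress were looked up among the members. Of 32, 42 and 30 such genes found in the annotation, 0 were overlapped by any of the 52 windows and 0 were the gene named for one, with SWI3C, MCM8 and 2-Cys Prx B outside these lists. Of all 27444 protein-coding genes only 45 (0.164%) were overlapped, so counts of 0 in lists of this size say nothing about these genes.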

How the data were processed

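Whole genome bisulfite sequencing was carried out on 45 rosette samples in 9 groups of 5. Reads were aligned by the authors in CLC Genomics Workbench to TAIR10.31 with its non-directional setting, and levels were called per context with a site coverage of at least 5 in at least 3 samples. What they deposited is 1 methylation level per group and window of 200 bp, a fraction. The nearest gene and, with bedtools, the nearest TE were added by the authors, and the submitters' processing notes name R 3.5.0. The deposited tables also hold the authors' own p-values (also adjusted), differences and direction, which were not used here. Of 18 tables, 8 hold a header line alone and were not used. Depth per sample and per window is not given in the sources used here, so no precision could be put on a single level.

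Differences were computed as γ110 minus γ30 from the deposited levels, and each window was counted once per table. The background level was taken from the table of γ30 against γ0, and of 3 levels the pair that was nearest left the other as the departing group. The windows and the gene lists were chosen with earlier results of these data known. Values are given for every S2 window, for the 8 largest increases and decreases of S1, and for the windows that other comparisons turned on, which were partly chosen after their values were seen. Shares have exact (Clopper-Pearson) intervals.

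The RefSeq annotation and sequence of TAIR10.1 were used for genes, exons and CG sites, after checking that 2331 of 2331 listed CG windows lay within its chromosomes and 0 lacked a CG, against 90 after a shift of 1000 bp. Whether the authors' build has the same sequence at every base was not tested. The share of windows listed is relative to all windows with a CG, since the number the authors tested was not used. The functions were tested on simulated data. Alternatives were the counting of entries, larger thresholds, joining neighbours, other rules for the departing group and for overlap with genes. Python 3.11.15, NumPy 2.4.6, pandas 2.3.3, SciPy 1.17.1 and Matplotlib 3.10.9 were used.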

Additional observations from a re-analysis of the deposited data

How the results depend on the processing

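Of the 30 alternative values, 21 stayed within 1.5 times the count reported. At a difference of at least 30%, 12 windows were higher and 11 lower in S1γ110 than in S1γ30, and 5 were lower in S2γ110 than in S2γ30. At a difference of at least 50%, these counts were 3 and 4 in S1 and 2 and 2 in S2. The tables give a class in place of a distance to the nearest gene. By that class, 18 windows of S1 and 5 of S2 lay in a gene body, and it follows the strand of the gene. Samples could not be left out in turn, since the tables hold 1 level per group. No paired analysis was possible because the columns are group levels without replicate numbers. What limits every count is that the tables hold only windows that passed the authors' thresholds, without coverage.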
